A study of Mus musculus with 6 samples.

Results

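A set of 10 early neural genes was examined in mouse embryonic stem (ES) cells by 31 probe sets, of 45037 on the array that are not manufacturer controls. The 10 genes were Dpysl3, Dpysl2, Sox1, Sox11, Pax6, Nes, Tubb3, Map2, Zic1 and Tspan2, out of 18193 genes that the array names by a single symbol. A probe set was taken as a member if that single symbol was one of the 10. Dpysl3 was chosen by its high level in clone A3, and the level of Tspan2 in that clone was also known when the genes were listed. The clone values of these genes are therefore given as a description, and a count of clone calls among them, printed beside the share over all probe sets, supports nothing. The response to induction did not enter the choice and was tested.

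The cells derived from the EBRTcH3 (EB3) ES line. They carried a human GTF2IRD2 coding sequence with a 3xFLAG tag at the ROSA26 locus, behind a promoter that tetracycline (Tc) represses. Each of the clones A3, A4 and A5 was grown once with Tc (uninduced, 0 hours) and once for 24 hours without it (induced). The 6 arrays thus make 2 groups of 3, and each clone has 2 arrays. All cultures were undifferentiated ES cells kept with leukemia inhibitory factor (LIF), every line was 1 clone, and all of them carried the transgene. The comparison between clones therefore has no line without it, and a clone cannot be told apart from its own culture history.

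Neural commitment of ES cells passes through a neuroectoderm in which SoxB1 factors such as Sox1 and regional factors such as Pax6 and Zic1 are active. Nes, an intermediate filament protein, then marks dividing neural progenitors, and SoxC factors such as Sox11 act as cells leave the cycle and begin to express neuronal genes. Young neurons are recognised by Tubb3, a neuronal beta tubulin, by the microtubule-associated protein Map2, and by the collapsin response mediator proteins (CRMPs), which include Dpysl2 and Dpysl3 and link semaphorin signals to the cytoskeleton of the growing axon. Tspan2 encodes a membrane protein of the tetraspanin family that is abundant in the nervous system.

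Sox11 and Tspan2 were the members besides Dpysl3 that lay higher in A3 at every probe set, so the 250 bases before their starts are shown, 5′ to 3′ on the strand of the gene, from RefSeq on GRCm38.p6. The Sox11 window is chr12:27342719-27342968 on the minus strand and the Tspan2 window is chr3:102734520-102734769 on the plus strand. Capitals mark the GC box GGGCGG, read on either strand, so that it can appear as CCGCCC.
Sox11: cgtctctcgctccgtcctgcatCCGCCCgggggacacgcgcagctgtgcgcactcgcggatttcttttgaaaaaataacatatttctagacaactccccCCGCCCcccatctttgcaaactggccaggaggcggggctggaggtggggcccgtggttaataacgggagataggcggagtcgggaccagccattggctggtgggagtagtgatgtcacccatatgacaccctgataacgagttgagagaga
Tspan2: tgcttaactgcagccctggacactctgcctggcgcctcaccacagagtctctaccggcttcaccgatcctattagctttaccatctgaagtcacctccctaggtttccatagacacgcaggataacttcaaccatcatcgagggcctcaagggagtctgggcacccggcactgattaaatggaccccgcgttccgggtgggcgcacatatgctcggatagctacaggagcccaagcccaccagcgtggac
The Sox11 window held 17 CpG dinucleotides, 2 GC boxes and 1 CCAAT box (CCAAT), and 58% of its bases were G or C. The Tspan2 window held 12 CpG dinucleotides at 57.2% G or C, and none of the 5 motifs searched on both strands. Another Tspan2 window, not at the gene start and not shown, held 17 CpG at 64.4% G or C and 1 Sox core (ACAAAG). Over 32851 windows of this length before RefSeq gene or transcript starts, the median was 6 CpG and 52.4% G or C, and a GC box was present in 32.7%, CCAAT in 33.8%, TATAAA in 12.4%, the Sox core ACAAAG in 16.5% and the E-box CACGTG in 6.02%. Both windows shown were thus above the median in CpG, but so were the windows of other members. These held 29 CpG for Sox1, 15 for Nes, 21 for Tubb3, 34 for Map2 and 27 for Zic1, and the Map2 window was not at the gene start. A window was found for 8 of the 10 genes.

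Expression is given as log2 RMA values, a background-corrected and quantile-normalized summary in which a difference of 1 is a 2-fold difference. Differences are taken only between arrays at the same probe set. Levels of different probe sets, as for markers and dim genes, are compared only roughly. The array medians lay between 5.03 and 5.06, so the arrays shared a scale. The arrays matched their ES cell label, since the mean of 14 ES cell markers was 11.13 to 11.23 on every array, and Pou5f1, the core pluripotency factor, averaged 12.56 for A3, 12.63 for A4 and 12.54 for A5. The mean of 8 fibroblast markers, which would reveal feeder cells, was 4.15 to 4.22. Probe sets for the poly-A control RNAs added to the samples averaged 6.58 and 6.91 in A3 and 6.06 to 6.57 in the other clones, and their part in the clone differences was not tested. The probe set of the mouse Gtf2ird2 gene differed by 0.18 on induction (SE 0.10, limma, adjusted p = 1), which does not measure the human transcript.

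Clone A3 carried more Dpysl3, Sox11 and Tspan2 RNA than A4 and A5, with and without Tc, and the other 7 genes showed no such excess at their brightest probe sets. At all 12 probe sets of these 3 genes both A3 arrays lay above the 4 others. The A3 mean exceeded the mean of A4 and A5 there by 0.43 to 1.83 on the log2 scale, or 1.34- to 3.55-fold. At the 19 probe sets of Dpysl2, Sox1, Pax6, Nes, Tubb3, Map2 and Zic1 the difference of A3 from the mean of A4 and A5 ran from -0.45 to 0.39. Both A3 arrays lay above the rest at 1 of these 19 probe sets and below them at 4.

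**Figure D1:**
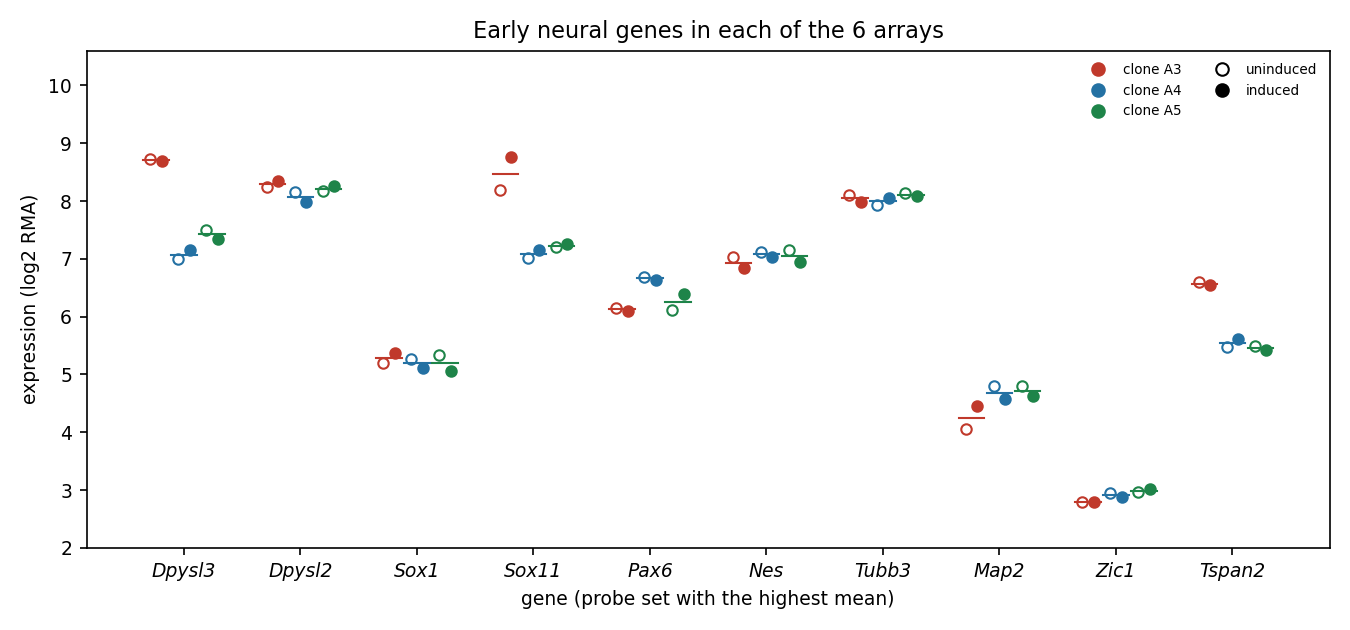
Expression (log2 RMA, vertical axis) of the 10 early neural genes at the probe set with the highest mean. Colours give the clone, open points uninduced arrays, filled points induced arrays, and short lines the clone means. The A3 points of Dpysl3, Sox11 and Tspan2 stand apart from A4 and A5, while the clones lie together for Dpysl2 and Tubb3.

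Among the CRMP genes, Dpysl3 encodes a cytosolic protein of young neurons and growth cones. At its brightest probe set it read 8.73 uninduced and 8.68 induced for A3, 7.00 and 7.15 for A4 and 7.50 and 7.35 for A5. The clone means were thus in the order A3 (8.70), A5 (7.42), A4 (7.07), and A3 exceeded the mean of the other clones by 1.46, or 2.74-fold, against a pooled SD of 0.09 between the 2 arrays of a clone. The difference was 1.48 among the uninduced arrays and 1.44 among the induced ones, so it was present with and without Tc. The paper describes a basal transgene level in Tc. In its RT-PCR time course, the GTF2IRD2 transcript rose on induction in each of these clones. It was highest in A3 with and without Tc. The part of the transgene in the Dpysl3 difference was not tested. The remaining Dpysl3 probe sets gave 1.34 and 1.16. A5 exceeded A4 by 0.35 at the brightest probe set only: A4 minus A5 was -0.03 and 0.04 at the others, below the spread within a clone.

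Dpysl2 encodes the family member best known for binding tubulin during axon growth, and it differed little. Its brighter probe set read 8.24 and 8.35 for A3, 8.16 and 7.99 for A4 and 8.17 and 8.26 for A5, uninduced first. The A3 arrays overlapped the others and the difference was 0.15, while the dimmer probe set gave -0.07. Of the remaining family, Dpys, a liver and kidney enzyme of pyrimidine breakdown related to the CRMPs, was 0.49 higher in A3. Its A4 mean also exceeded that of A5 by 0.47. Dpysl5 was 0.27 higher in A3, and for each gene both A3 arrays lay above the rest. Dpysl4 also differed by 0.27 but with overlapping arrays, and Crmp1 gave 0.01.

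Sox11 was the transcription factor of the set whose A3 arrays lay above the rest at every probe set. This SoxC factor, with its relative Sox4, supports the onset of neuronal gene expression in progenitors. Its brightest probe set read 8.18 uninduced and 8.76 induced for A3, 7.02 and 7.16 for A4 and 7.20 and 7.25 for A5. Both A3 arrays lay above every other array, and the clone means were 8.47 for A3, 7.09 for A4 and 7.23 for A5. A3 exceeded the mean of A4 and A5 by 1.31, or 2.48-fold, with a pooled SD within clones of 0.24, and A4 and A5 differed by less than that. The other 5 probe sets, from bright to dim, gave 1.15, 0.77, 0.64, 0.57 and 0.43.

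Sox1, Pax6 and Zic1, which mark the neural plate or its regions, showed no such elevation. Sox1 read 5.20 and 5.37 for A3, 5.26 and 5.12 for A4 and 5.34 and 5.05 for A5, with a difference of 0.09 and overlapping arrays. Its dimmer probe set was the exception, with both A3 arrays above the rest and a difference of 0.39, where A5 also exceeded A4 by 0.40. For Pax6 the values were 6.15 and 6.11 for A3, 6.69 and 6.63 for A4 and 6.11 and 6.39 for A5, so that A4 rather than A3 stood out. The Pax6 probe sets ran from -0.33 to 0.03, with both A3 arrays below the rest at 2 of 5. Zic1 was near the bottom of the scale, at 2.79 to 3.01 on all arrays, with a mean above that of 11.2% of all probe sets, and its A3 difference was -0.17.

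The cytoskeletal markers Nes, Tubb3 and Map2 did not separate A3 upward either. Nes read 7.03 and 6.83 for A3, 7.12 and 7.04 for A4 and 7.15 and 6.95 for A5, with a difference of -0.13 and overlapping arrays. Tubb3, measured by 1 probe set, read 8.11 and 7.98 for A3, 7.94 and 8.05 for A4 and 8.14 and 8.08 for A5, and its clone difference of -0.01 was below the pooled SD of 0.08 within clones. Map2 was dim. It read 4.05 and 4.45 in A3 and 4.57 to 4.80 in the other clones, a difference of -0.45 with a pooled SD of 0.20, and at its other probe sets the A3 arrays overlapped the rest.

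Tspan2 had the widest clone difference of any member probe set. Its brightest probe set read 6.59 and 6.55 for A3, 5.48 and 5.61 for A4 and 5.49 and 5.43 for A5, a difference of 1.07 or 2.10-fold. Both A3 arrays were separate from the rest by far more than the pooled SD of 0.06, and A4 and A5 lay 0.09 apart. A second, dimmer probe set read 5.79 and 5.88 for A3, 3.89 and 4.11 for A4 and 3.97 and 4.05 for A5, a difference of 1.83 or 3.55-fold. The third gave 0.61.

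**Figure D2:**
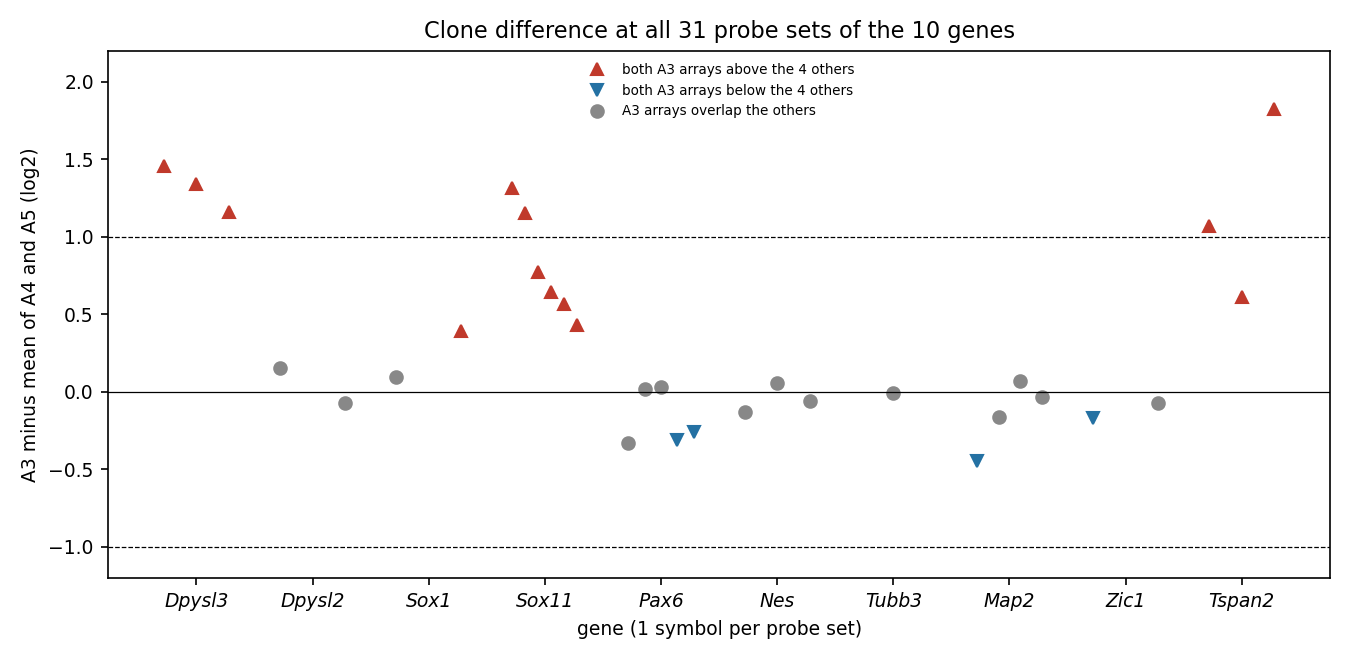
Log2 difference of A3 from the mean of A4 and A5 (vertical axis) for the 31 probe sets, grouped by gene and ordered from bright to dim within each. Triangles mark probe sets whose A3 arrays both lie above or both below the 4 others, and dashed lines mark 2-fold. The points beyond 2-fold belong to Dpysl3, Sox11 and Tspan2.

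In counts, both A3 arrays lay above the 4 others at 13 of 31 member probe sets, where 12.1% of all probe sets did so, and below them at 4, against 13.5%. A3 was more than 2-fold above the mean of A4 and A5 at 7 member probe sets, against 0.0910% of all, or 41 probe sets. The clone term of limma's F-test had an adjusted p under 0.05 at 10 members, 9 of them probe sets of Dpysl3, Sox11 and Tspan2 and 1 the dimmer Sox1 probe set, against 2.18% of all probe sets. Since the members were chosen with this contrast known, nothing is read from the excess. With both A3 arrays left out, which leaves 4 arrays, 0 members were called and the calls over all probe sets fell from 980 to 26. Of the 4 probe sets with lower A3 arrays, none had a mean of 5 or more, and 20 of the 31 members did.

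The elevated genes lie on different chromosomes, 18 for Dpysl3, 12 for Sox11 and 3 for Tspan2. Over all measured genes the median A3 difference was 0.00 on chromosome 18, -0.03 on chromosome 12 and -0.01 on chromosome 3. Over genes with a mean of at least 5 it was 0.03, the highest of the autosomes, on chromosome 18. The same median was -0.02 on chromosome 12 and -0.01 on chromosome 3. A shift of a whole chromosome was not tested. Around Dpysl3, however, some neighbours were also higher in A3. Spink1, a secreted trypsin inhibitor and the second measured gene on one side, averaged 9.53 for A3, 8.03 for A4 and 8.31 for A5, a difference of 1.36 with both A3 arrays above the rest. Jakmip2, between it and Dpysl3, gave 0.64 and Stk32a, next on the other side, gave 0.32, both with separate A3 arrays but at means of 3.10 and 4.00, in the dim range. The remaining neighbours gave -0.29 to 0.18. The 6 nearest measured genes gave -0.18 to 0.02 around Sox11 and -0.20 to 0.17 around Tspan2.

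**Figure D3:**
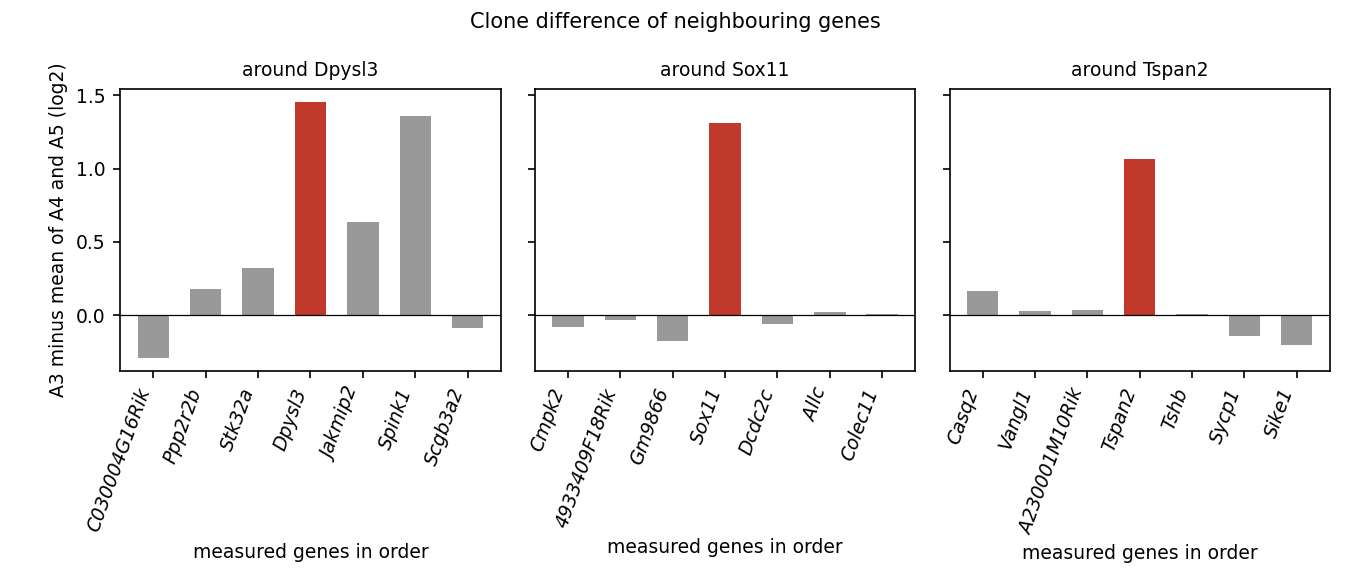
Log2 difference of A3 from the mean of A4 and A5 (vertical axis) for Dpysl3, Sox11 and Tspan2 (red bars) and the 3 nearest measured genes on each side (grey bars), in chromosome order. Spink1 near Dpysl3 reaches 1.36, while the neighbours of Sox11 and Tspan2 stay between -0.20 and 0.17.

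The genes most like Dpysl3 across the arrays were sought among 140 genes with a mean of at least 5 and a range of at least 1, by Pearson's r over the 6 arrays. These arrays are 3 clones measured in pairs, so r mostly compares A3, A5 and A4, and no p is given. The nearest were Armcx4 (r = 0.998), Spink1 (0.996), Nefl (0.989), Egr1 (0.989), Trim2 (0.987) and Gap43 (0.984). Nefl encodes the light neurofilament subunit and averaged 9.32 for A3, 8.30 for A4 and 8.56 for A5. Gap43, a protein of growth cones, averaged 8.00, 7.10 and 7.23. Egr1, an immediate early transcription factor, exceeded the other clones by 1.37 in A3. Tspan2 ranked 20 (r = 0.962) and Sox11 ranked 24 (r = 0.952) in likeness to Dpysl3. Both entered the candidates only through their high A3 arrays, and members that varied less could not enter. A high r was thus largely fixed by the range filter, and nothing is read from these ranks. The genes nearest to Tspan2 were Rpl39l, Ccl25, Tmem40, Mex3b, Sccpdh and Smtnl1, none of which was among the 6 nearest to Dpysl3.

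Wider lists of neural genes were mixed in direction. For lists, each gene is given by its brightest probe set, and over all 18193 genes both A3 arrays lay above the rest in 14.0% and below in 16.6%, with 0.209% more than 2-fold apart in either direction. Of 27 measured proneural and neuronal genes, 8 lay above and 4 below, with a median difference of -0.0008. Besides Sox11, the group above included Nefl (0.89) and Gap43 (0.84), and the group below included Neurod1, a proneural factor, at -0.67. Of 30 neural plate and regional transcription factors, 3 lay above and 4 below, with a median of -0.07. Sox3, a SoxB1 factor, was 0.50 higher, mostly through the induced A3 array. It read 6.48 uninduced and 7.17 induced for A3, against 6.45 for uninduced A5. The forebrain factor Hesx1 gave -0.35, and Otx2, a factor of the anterior neural plate, gave -0.39 with overlapping arrays. Among 14 neural progenitor and Notch genes, 5 lay above and 3 below: Prom1, a progenitor surface protein, gave 0.53 and Vim 0.38, whereas Msi1, an RNA-binding protein of neural progenitors, gave -0.72 and the Notch target Hes1 -0.40.

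The family lists count the elevated genes themselves, and Dpysl3 was chosen on this difference, so no lean of a family is read from them. Besides Dpysl3, only Dpysl5 of the CRMP genes had both A3 arrays above the rest, while Dpysl2, Dpysl4 and Crmp1 overlapped. The list of 5 CRMP genes and their relative Dpys ran from 0.01 for Crmp1 to 1.46 for Dpysl3. It had 3 above, Dpysl3, Dpysl5 and Dpys, and 0 below, with a median of 0.27. The 8 SoxB and SoxC genes had 3 above, Sox11, Sox3 (0.50) and Sox4 (0.42), and 1 below, with Sox2 at -0.08. Of 22 tetraspanins, 4 lay above and 6 below, and Cd37, a tetraspanin of leukocytes, ran against Tspan2 at 6.09 for A3, 7.30 for A4 and 7.34 for A5. Of 13 beta tubulins and microtubule-associated proteins, 3 lay above, among them Map1b (0.50), and 5 below. Of 15 semaphorin signalling genes around the CRMPs, 2 lay above and 3 below, with Sema3c at 0.51 and Sema3e at -0.54.

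Markers of other cell types were also mixed. Of 13 glial and neural crest markers 2 lay above and 1 below, and of 7 primed epiblast markers 1 lay above, Dnmt3b at 0.42. Mesoderm, endoderm and trophoblast markers each had 1 gene above, with 3, 3 and 4 below. Their list medians were -0.06, -0.12 and -0.19. The largest differences were those of Eomes (-0.75), Lama1 (0.52) and Ascl2 (0.82), and Lama1 and Ascl2 were the only genes above in their lists. Of 14 ES cell markers 3 lay above and 5 below, with Dppa3, a germ cell and naive ES gene, at -0.81 and Fgf4 at 0.50. None of 8 fibroblast markers separated A3 in either direction. The part of these cell states in the levels of Dpysl3, Sox11 and Tspan2 was not tested.

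**Figure D4:**
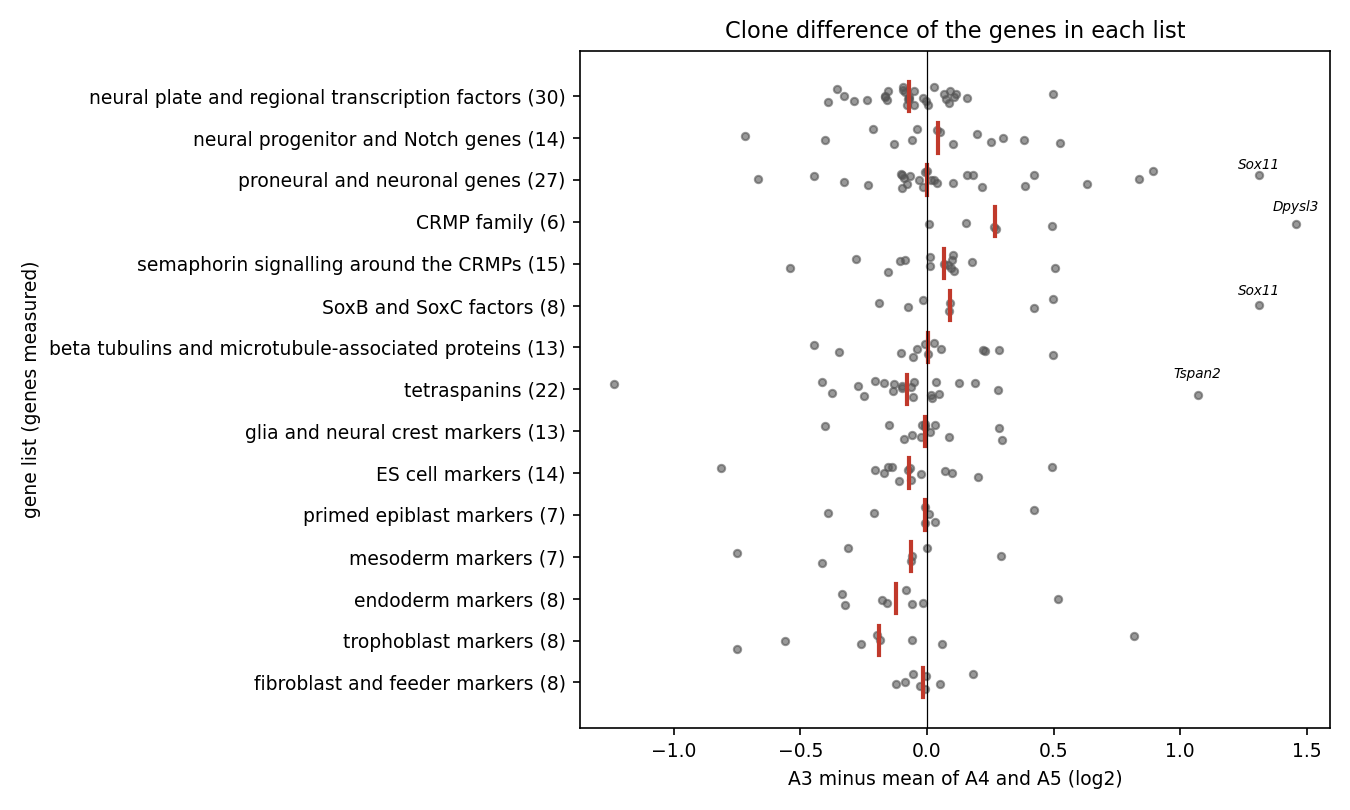
Log2 difference of A3 from the mean of A4 and A5 (horizontal axis) for each measured gene of 15 lists (grey points, spread vertically for legibility), with list medians as red lines and the number of genes measured in brackets. List medians lie between -0.19 and 0.27, and Dpysl3, Sox11 and Tspan2 are at the right edge of their lists.

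Induction of GTF2IRD2 was the comparison that the design poses, and no early neural gene passed its test. Limma called 0 of the 31 member probe sets at an adjusted p under 0.05, against 0% of all 45037 probe sets. At an unadjusted p under 0.05 it called 1 member, against 3.12% of all. With the clone as a replicate block, which takes the clone differences out of the error, 4 members had an unadjusted p under 0.05, against 5.77% of all, and the smallest adjusted p was 0.843. These 4 were 2 probe sets of Sox11, higher on induction, and 1 each of Pax6 and Nes, lower. The median difference over the members was -0.01, against -0.0037 over all probe sets, and 13 members were higher and 18 lower. A single sign in all 3 clones was shown by 10 members, 5 up and 5 down, against 25.9% of all probe sets.

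Dpysl3 averaged 7.74 ± 0.89 uninduced and 7.73 ± 0.84 induced (SD, n = 3 each). The difference was -0.01, composed of -0.04 for A3, 0.15 for A4 and -0.15 for A5, and its 95% interval was -1.13 to 1.10 without the block and -0.20 to 0.17 with it. Most of the SD came from the standing clone difference. Tspan2 averaged 5.85 ± 0.64 and 5.86 ± 0.60 (SD, n = 3 each), with a difference of 0.01 and a blocked interval of -0.16 to 0.18.

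At the brightest probe sets, Sox11 and Nes were the members with 1 sign in all 3 clones. Sox11 averaged 7.47 ± 0.63 uninduced and 7.72 ± 0.90 induced (SD, n = 3 each), a difference of 0.25 made of 0.57 for A3, 0.14 for A4 and 0.05 for A5. Its blocked interval was 0.02 to 0.49 with a limma adjusted p of 0.843, and A3 supplied most of it: the difference was 0.10 with both A3 arrays left out. The second Sox11 probe set gave 0.37, 0.32 and 0.14 in the same order, but the other 4 did not keep one sign over the clones. Nes averaged 7.10 ± 0.06 uninduced and 6.94 ± 0.10 induced (SD, n = 3 each), lower by 0.20, 0.09 and 0.20 in A3, A4 and A5, with a blocked interval of -0.32 to -0.0033 and a limma adjusted p of 0.843. A second Nes probe set was also lower in all 3 clones, with a mean difference of -0.09, and the third went both ways, at 0.01 for A3, -0.15 for A4 and 0.05 for A5.

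At their brightest probe sets the other members went in both directions over the clones. Dpysl2 differed by 0.01, Tubb3 by -0.02, Sox1 by -0.09, Map2 by -0.0008, Pax6 by 0.06 and Zic1 by -0.01 there. Dimmer probe sets of some of these genes did keep 1 sign in all 3 clones, without passing the test: 1 each of Dpysl3 (0.14), Dpysl2 (-0.14), Pax6 (-0.18) and Tspan2 (0.13), and 2 of Map2 in opposite directions (-0.18 and 0.16). That Pax6 probe set was the one member with an unadjusted p under 0.05 without the block (limma adjusted p = 1). Over all members the blocked 95% intervals ran from -0.36 to 0.49, so none of them included a 2-fold change, whereas the intervals without the block ran from -1.24 to 1.50. No gene of the 15 lists was called on induction either. At the brightest probe sets and without the block, the midbrain and hindbrain factor En2 was the only list gene with an unadjusted p under 0.05. Its difference was 0.20 (limma adjusted p = 1). Without the block, the p-values measure the spread between 3 clones with 1 array per condition. With the block, they measure how the change on induction varied between these clones. In both fits limma draws the variance of each probe set toward a value common to all probe sets. The p-values and intervals of a gene thus do not rest on its own spread alone. No clone was repeated.

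**Figure D5:**
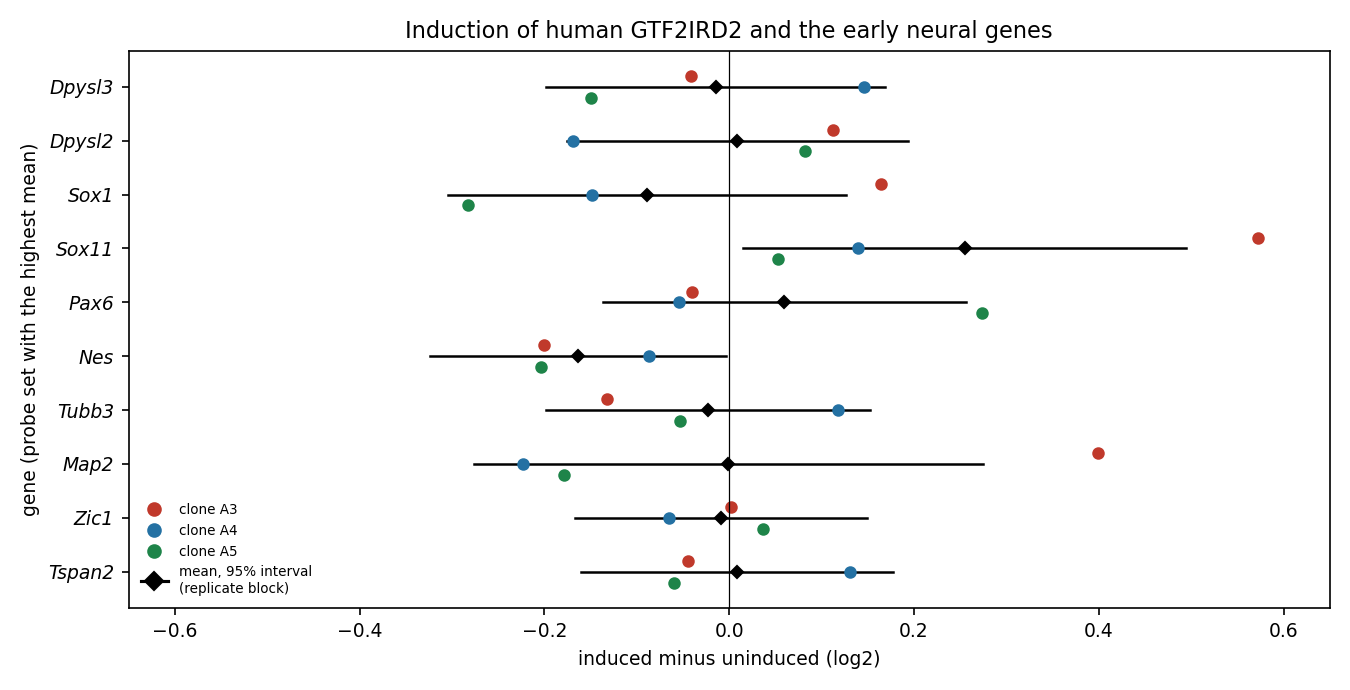
Induced minus uninduced (log2, horizontal axis) for the 10 genes at the brightest probe set, with 1 point per clone and, in black, the mean with its 95% interval from limma with the clone as a replicate block. The points of Sox11 lie to the right of 0 and those of Nes to the left in all 3 clones, and those of the other 8 genes fall on both sides.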

How the data were processed

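Total RNA of the 6 cultures was hybridised to Affymetrix Mouse Genome 430 2.0 arrays. The authors made the deposited log2 values from raw intensities by RMA in the affy package, whose versions are not given in the sources used here. Quantile normalization gives all arrays one distribution, so a shift of all genes together could not be seen. Of 45101 probe sets, 64 are controls, and the other 45037 were analysed without a filter. The probe-to-gene table gives 1 symbol for 34945, several for 932 and none for 9160. Groups and clones were taken from the sample labels. Induction was tested with limma 3.58.1 in R 4.3.3 (lmFit and eBayes, two-sided, Benjamini-Hochberg over all 45037), and clones with its F-test beside induction. The fits were tested on simulated data. After group means were taken out, arrays of the same clone correlated at 0.524 for A3, 0.376 for A4 and 0.210 for A5, against -0.407 to 0.0689 across clones, so clone pairs the arrays. The members and gene lists were chosen with earlier results of these data known. Of 196 genes on the lists, 187 were measured by a probe set of that single symbol. The genes that could be named from each list were up to 3 further genes with the largest A3 difference and up to 2 with the smallest induction p. Alternatives were the replicate block, the methods' t-test, a mean of at least 5, an intensity trend, repeated quantile normalization, the mean of all probe sets and leaving out arrays.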

Additional observations from a re-analysis of the deposited data

How the results depend on the processing

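Induction called 0 members in each of the 14 alternatives, the methods' t-test and the replicate block included. It also called 0 of all probe sets in each, so this count is not particular to the members. The count of members with clone calls was 10 and ranged from 0 to 13 when arrays or clones were left out, with 0 only when both A3 arrays were. Over all probe sets the clone calls were 980 and ranged from 26 to 1427 in the same settings. The 4 probe sets with lower A3 arrays became 0 at a mean of at least 5. Induction differences of member genes kept their sign in 108 values and reversed in 39. With the mean of all probe sets of a gene, Dpysl3 gave 0.0163, Dpysl2 -0.0644 and Pax6 -0.0504, Sox11 was 0.0827 in place of 0.25 and Nes -0.0943 in place of -0.16, and the A3 difference of Sox11 was 0.81 in place of 1.31. With quantile normalization repeated, Dpysl2 gave -0.0026, Map2 0.0113 and Zic1 0.0003. Leaving out 1 array, which unbalances the clones, gave -0.49 to 0.48 for Dpysl3, -0.0688 to 0.11 for Dpysl2, -0.18 to -0.0263 for Sox1, -0.26 to 0.61 for Sox11, -0.0697 to 0.25 for Pax6, -0.21 to -0.11 for Nes, -0.0851 to 0.0148 for Tubb3, -0.25 to 0.13 for Map2, -0.0670 to 0.0440 for Zic1 and -0.33 to 0.38 for Tspan2. Leaving out both arrays of a clone reversed Dpysl2 (-0.0431) and Tubb3 (0.0322) without A3, Map2 (0.11), Zic1 (0.0191) and Tspan2 (-0.0525) without A4, and Dpysl3 (0.0526), Dpysl2 (-0.0282), Sox1 (0.0078), Pax6 (-0.0472) and Map2 (0.0884) without A5. The replicate block left every difference as it was, since the clones are balanced, and moved the members with an unadjusted p under 0.05 from 1 to 4, with 0 called. The A3 differences moved by less than the spread within clones in 25 values and by more in 14, and those of Sox1 and Tubb3 had opposite signs in uninduced and induced arrays.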
